A study of Mus musculus with 19 samples.

Results

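Acetylation of histone H3 at lysine 27 (H3K27ac) was compared between CD11c-low microglia of mice with a deletion of Prmt1 in microglia and CD11c-high microglia of floxed mice without the deletion, all after 5 weeks of a diet with 0.2% cuprizone (CPZ). The KO CD11c-low cells carried PRMT1fl/fl; cx3r1cre-ert2, a pair of floxed Prmt1 alleles with a tamoxifen-inducible Cre recombinase under the Cx3cr1 driver, which is active in microglia and other Cx3cr1-expressing cells. The WT CD11c-high cells carried the floxed alleles alone, spelled PRMT1Ifl/fl in the sample titles. Mice of both genotypes were C57BL/6 and received tamoxifen before the diet. The labels give an age of 4 to 6 weeks at the start of the diet, whereas the methods give a similar age for the tamoxifen injections and place the diet after them, so the age at its start is uncertain. Microglia were sorted as CD11b+ CD45+ cells and then by CD11c, and each group had 2 H3K27ac libraries, which the study describes as independent biological replicates. Of the 19 samples in the whole series, 10 had been immunoprecipitated for H3K27ac and 9 were input. The H3K27ac library with no input of the same group and replicate number was KO CD11c-low replicate 1. Members were all peaks that the authors listed for these groups, 909 of the 14035 rows listed over 5 comparisons, or of 12333 regions with different start and end.

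The comparison set a knockout population from one side of the CD11c gate against a wild-type population from the other side. Genotype and gate changed together and cannot be told apart here. In sorted bulk cells, fewer cells with a marked region and less acetylation per cell cannot be told apart either. Only peaks past the threshold of the authors (an adjusted p and a fold change from DESeq2 run through HOMER) were listed, so direction and non-overlap of the groups were fixed by the choice of the peaks. Their differences are therefore given as a description, and with 2 libraries a side the smallest two-sided p of an exact permutation test is 0.333.

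H3K27ac is deposited by the acetyltransferases p300 and CBP at active promoters and enhancers and is removed by histone deacetylases. PRMT1 places asymmetric dimethylation on arginines, among them arginine 3 of histone H4, a mark linked to later histone acetylation. Cuprizone is a copper chelator that kills oligodendrocytes, and microglia respond to the myelin debris with a program of lysosomal, lipid and cytokine genes known as the disease-associated microglia (DAM) program. CD11c, the integrin alpha X chain encoded by Itgax, marks a subset of these cells, and major histocompatibility complex (MHC) class II, which presents peptides to CD4+ T cells, is induced in some of them. Class II genes are switched on by the coactivator CIITA, which binds no DNA itself and acts through factors bound to the S, X and Y boxes of class II promoters.

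The regions on which the comparison turned are shown first. A pair of class II promoters is given because listed peaks lay over or beside them, and the central 200 bases of 4 peaks are given as examples of large differences in each direction. All were read from GRCm38.p6. The H2-Aa promoter (chr17:34287824-34287933, minus strand) lay within the listed peak at chr17:34286579-34287950. The H2-Eb1 promoter (chr17:34305757-34305866, plus strand) was reached only at its 3′ end by the peak at chr17:34305837-34306462. The Y box marked below in the H2-Eb1 promoter lay outside that peak. Both are printed 5′ to 3′ over the 110 bases before the RefSeq start. Capitals mark the Y box letters CTGATTGG, at -51 to -44 in H2-Aa and at -62 to -55 in H2-Eb1, and in H2-Aa also the cAMP response element (CRE) letters TGACGTCA at -74 to -67.
H2-Aa promoter: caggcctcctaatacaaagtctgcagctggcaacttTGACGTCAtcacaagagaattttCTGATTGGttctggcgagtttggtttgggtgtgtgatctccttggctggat
H2-Eb1 promoter: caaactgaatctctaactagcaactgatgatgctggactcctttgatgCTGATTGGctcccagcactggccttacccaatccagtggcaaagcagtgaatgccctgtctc
The letters CTGATTGG stood on either strand in the same window of 899 of 32851 RefSeq promoters (2.74%), and TGACGTCA in 394 (1.20%). The peak centres are on the plus strand. Capitals mark the PU.1 letters GAGGAAGT, the core bound by the myeloid factor PU.1, in the peak near Ppp4r2 (chr6:100829470-100829669), which was lower in KO CD11c-low cells. In the other 3 centres, higher in KO CD11c-low cells, they mark a match on either strand to the C/EBP letters TTGCNNAA, near Gdpd5 (chr7:99390534-99390733), in Ccnk (chr12:108194667-108194866) and in Mtss1 (chr15:59030120-59030319). A match of letters is a description and not a bound site. Letters of PU.1, AP-1, C/EBP, RUNX and IRF were all searched in these centres. In the central 200 bases, C/EBP letters stood in 10.2% of lower and 8.17% of higher peaks, against 9.62% of all listed regions. PU.1 letters stood in 3.39% and 3.61%, against 3.62%. The 4 examples therefore show no split of these letters by direction.
Ppp4r2 peak centre: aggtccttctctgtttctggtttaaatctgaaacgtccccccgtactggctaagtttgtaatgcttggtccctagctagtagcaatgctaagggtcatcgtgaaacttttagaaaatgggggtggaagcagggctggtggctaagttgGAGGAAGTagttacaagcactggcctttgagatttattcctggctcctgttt
Gdpd5 peak centre: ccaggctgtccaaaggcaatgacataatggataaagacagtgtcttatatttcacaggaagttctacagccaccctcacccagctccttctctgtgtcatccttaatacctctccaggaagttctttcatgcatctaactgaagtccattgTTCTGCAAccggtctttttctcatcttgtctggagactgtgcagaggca
Ccnk peak centre: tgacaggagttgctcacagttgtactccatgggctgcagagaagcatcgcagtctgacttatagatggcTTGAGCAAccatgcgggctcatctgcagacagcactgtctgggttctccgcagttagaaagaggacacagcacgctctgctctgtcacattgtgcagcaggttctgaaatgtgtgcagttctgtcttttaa
Mtss1 peak centre: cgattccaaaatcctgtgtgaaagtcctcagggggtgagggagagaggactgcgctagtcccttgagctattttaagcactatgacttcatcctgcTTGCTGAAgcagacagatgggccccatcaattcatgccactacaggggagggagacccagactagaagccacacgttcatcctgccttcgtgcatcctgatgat

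Of the 909 peaks, 383 (42.1%) were lower and 526 (57.9%) were higher in KO CD11c-low than in WT CD11c-high cells. They were assigned to 742 nearest genes, of which 328 (44.2%) had only lower peaks, 409 (55.1%) only higher peaks and 5 had both. With median-ratio factors taken over the listed peaks, limma called 383 lower and 204 higher peaks, against 383 and 525 with the values as deposited. Levels are normalized tag counts, the reads in a peak scaled to a common library size. Relative depth, with the average of the 4 libraries as 100%, came to 92.9% and 105% for KO CD11c-low and to 93.8% and 108.4% for WT CD11c-high, and a listed peak held a median of 81 and 96 reads in KO CD11c-low and of 73 and 86 reads in WT CD11c-high. Lower peaks had a median level of 51.7 and 57.2 in the KO CD11c-low libraries, against 145.1 and 145.8 in the WT CD11c-high libraries. Higher peaks had a median level of 130.3 and 128.6 in KO CD11c-low, against 46.9 and 48.0 in WT CD11c-high. The median log2 difference (KO CD11c-low minus WT CD11c-high, of means with 1 added) was -1.41 for lower peaks and 1.46 for higher peaks, a median fold of 2.66 and 2.74. More than 4-fold lay 76 lower and 113 higher peaks, and more than 8-fold 8 lower and 27 higher peaks.

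The standard error (SE) of each log2 difference came from limma fitted over the 909 peaks, and its median was 0.22 for lower and 0.23 for higher peaks. In that fit 908 of 909 peaks had a Benjamini-Hochberg adjusted p under 0.05, which follows from how the list was made and supports nothing. Just inside the fold threshold on the lower side, the peak near Tnfrsf17 had 110.9 and 95.3 tags in KO CD11c-low against 214.4 and 198.4 in WT CD11c-high (log2 difference -0.99). On the higher side, the peak in Pld1 had 211.0 and 303.9 tags in KO CD11c-low against 128.0 and 129.2 in WT CD11c-high (1.00). Peaks just outside the threshold were not analysed here, since they are not in the lists.

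Over all peaks, the KO CD11c-low replicates were more than 2-fold apart at 56 of 909, with replicate 1 the higher one at 42 of them, and the WT CD11c-high replicates at 29, all of them higher peaks. Without KO CD11c-low replicate 1 no peak changed its sign, but the difference of 27 of the 526 higher peaks was more than 1.5 times smaller, against 7 without KO CD11c-low replicate 2. Of the 383 lower peaks, 2 were more than 1.5 times smaller without KO CD11c-low replicate 1 and 3 without replicate 2.

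**Figure D1:**
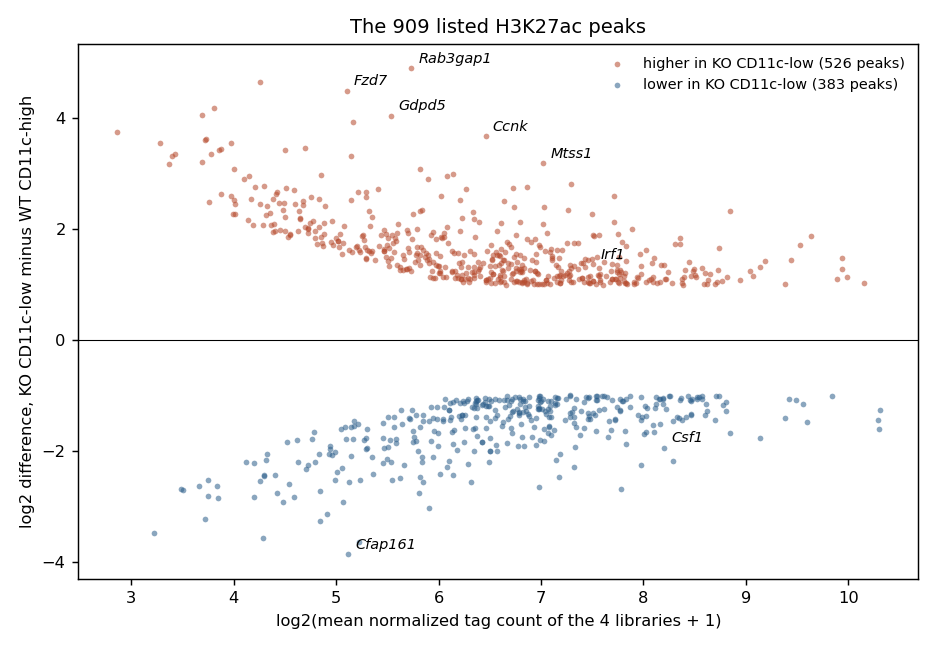
Each point is a listed H3K27ac peak, with the log2 of the mean normalized tag count of the 4 libraries plus 1 on the x axis and the log2 difference (KO CD11c-low minus WT CD11c-high) on the y axis, coloured by direction. The 526 higher and 383 lower peaks leave an empty band around 0 because only peaks past the threshold were listed, and the differences reach 4.90 upwards and -3.86 downwards.

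No listed peak had Prmt1, the deleted gene, as its nearest gene, so the deletion could not be checked in the H3K27ac values. In the authors' RNA table of the same comparison, with 1 library a side, Prmt1 had a pooled mean level of 54.1 per kilobase of transcript, which carries no direction. Cx3cr1, which drives the Cre, was the nearest gene of none either. The microglia genes P2ry12, Tmem119 and Csf1r had no listed peak and pooled RNA levels of 476.8, 433.8 and 561.0 per kilobase, against a median of 1.27 over all 24717 genes of that table.

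MHC class II genes had lower peaks only. Of 11 genes in the list, H2-Aa, H2-Ab1, H2-Eb1 and Ciita had 5 listed peaks, all lower in KO CD11c-low cells, against 44.2% of all genes with a listed peak that had lower peaks only. Summed over the 5 peaks, the level was 276.7 and 223.9 in the KO CD11c-low libraries and 676.2 and 693.0 in the WT CD11c-high libraries. None of 17 genes of MHC class I and peptide loading, which presents to CD8+ T cells, had a listed peak.

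The gene H2-Aa, for the alpha chain of the I-A molecule, had 2 peaks. The peak over its promoter and first intron (chr17:34286579-34287950), whose promoter is printed above, had 51.7 and 49.5 tags in KO CD11c-low cells, against 179.2 and 165.2 in WT CD11c-high cells (log2 difference -1.75, SE 0.19). The intergenic peak upstream (chr17:34293812-34294563) had 31.2 and 36.2 tags in KO CD11c-low, against 109.9 and 102.4 in WT CD11c-high (-1.63). At both peaks the replicates of a group lay close together and the groups were well apart. The gene of the partner beta chain, H2-Ab1, had an intergenic peak (chr17:34257776-34259101) with 53.8 and 55.3 tags in KO CD11c-low, against 128.0 and 134.7 in WT CD11c-high (-1.25, SE 0.19).

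H2-Eb1, for the beta chain of the I-E molecule, had the largest difference of the class II peaks. Its peak over the first intron (chr17:34305837-34306462) had 20.5 and 8.57 tags in KO CD11c-low cells, against 68.3 and 73.8 in WT CD11c-high cells (log2 difference -2.22, SE 0.41). The KO CD11c-low replicates differed more from each other here than the WT CD11c-high replicates did. These 4 peaks lay side by side on chromosome 17. The coactivator gene Ciita, on chromosome 16, had an intergenic peak (chr16:10475432-10476870) with 119.5 and 74.3 tags in KO CD11c-low, against 190.9 and 216.9 in WT CD11c-high (-1.07, SE 0.23). In the pooled RNA of the comparison the class II chains stood at 239.2 (H2-Aa), 229.9 (H2-Ab1) and 124.1 (H2-Eb1) per kilobase and Ciita at 4.42.

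Of 43 genes of the DAM program, 9 had listed peaks, and in all 9 every listed peak was lower in KO CD11c-low cells, against 44.2% of all 742 genes with a listed peak that had lower peaks only. Without Itgax, whose protein set the gate, the count was 8. Their 14 peaks summed to 1854 and 1937 tags in the KO CD11c-low libraries, against 5030 and 4778 in the WT CD11c-high libraries. Of these sums, the 4 Kcnj2 peaks gave 1039 and 1072 in KO CD11c-low and 2550 and 2525 in WT CD11c-high. With only peaks within 100 kb of the gene start, all 9 genes kept a peak and 12 peaks remained. These summed to 1198 and 1189 in KO CD11c-low, against 3245 and 2973 in WT CD11c-high. The median log2 difference of the 14 peaks was -1.41, beside -1.41 over all lower peaks. Itgax, for CD11c, had an intronic peak (chr7:128136687-128139225) with 114.1 and 76.2 tags in KO CD11c-low, against 225.1 and 220.6 in WT CD11c-high (-1.22, SE 0.21). Since the groups were sorted on that protein, the Itgax peak is a check of the gate and no finding. The KO CD11c-low replicates differed by about the same factor at Itgax as at Ciita, and both stayed below the WT CD11c-high replicates.

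Csf1 encodes the colony-stimulating factor on which microglia depend for survival. Its intergenic peak (chr3:107727568-107730373) had 115.2 and 126.7 tags in KO CD11c-low cells, against 491.7 and 442.9 in WT CD11c-high cells (log2 difference -1.94, SE 0.14), and an intronic peak (chr3:107752622-107753249) had 16.2 and 22.9 against 73.6 and 67.4 tags (-1.80, SE 0.30). Kcnj2, for the inward rectifier potassium channel Kir2.1, had 4 lower peaks, the most of any gene beside C330018D20Rik. The Kcnj2 peak with the largest difference (chr11:111323333-111328213) had 236.8 and 276.3 tags in KO CD11c-low, against 909.8 and 827.7 in WT CD11c-high (-1.76, SE 0.13). All 4 lay downstream of the gene in intergenic sequence, spread over 358 kb, so some were far from it. The other 3 had log2 differences between -1.08 and -1.03.

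The galectin gene Lgals3 had its nearest peak in an intron of a neighbouring transcript (chr14:47394999-47396487) with 80.7 and 85.7 tags in KO CD11c-low cells, against 234.7 and 236.2 in WT CD11c-high cells (log2 difference -1.49, SE 0.16). Mamdc2 had an intergenic peak with 17.2 and 21.9 tags in KO CD11c-low, against 101.3 and 84.0 in WT CD11c-high (-2.19). The larger of the Postn peaks, near the gene of the matrix protein periostin, had 120.6 and 211.5 tags in KO CD11c-low, against 508.8 and 404.2 in WT CD11c-high (-1.45). Dkk2, for a secreted Wnt antagonist, differed by -1.37, Ctsl, for the lysosomal protease cathepsin L, by -1.22 and the tetraspanin gene Cd9 by -1.10. Each of these peaks had its replicates apart from those of the other group, which the listing required.

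Genes of NF-kB, cytokines and chemokines had 5 of 44 members with lower peaks only and 1 with a higher peak only, against shares of 44.2% and 55.1% among all genes with a listed peak. Ikbke, for a kinase that acts in NF-kB and interferon signalling, had an intronic peak (chr1:131275710-131279796) with 249.7 and 233.4 tags in KO CD11c-low cells, against 585.6 and 494.6 in WT CD11c-high cells (log2 difference -1.16, SE 0.14). Tnfaip3, for the ubiquitin-editing enzyme A20 that restrains NF-kB, had an intergenic peak with 88.3 and 72.4 tags in KO CD11c-low, against 173.9 and 171.6 in WT CD11c-high (-1.10, SE 0.18). The stress response gene Gadd45b was nearest to a peak with 53.8 and 61.0 tags in KO CD11c-low and 125.9 and 115.4 in WT CD11c-high (-1.06), which lay in an intron of another transcript. Il1rn, for the interleukin-1 receptor antagonist, had a promoter peak with 20.5 and 10.5 tags in KO CD11c-low and 51.2 and 46.1 in WT CD11c-high (-1.59). The chemokine gene Ccl2, which attracts monocytes, was the member in the other direction, with 108.7 and 127.6 tags in KO CD11c-low and 46.9 and 48.9 in WT CD11c-high (1.28, SE 0.21).

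Interferon-stimulated genes had 3 of 47 members with a listed peak and were divided in direction. Irf1, for an interferon-induced transcription factor, had 2 higher peaks. One (chr11:53785487-53787277) had 262.7 and 261.0 tags in KO CD11c-low cells, against 101.3 and 99.7 in WT CD11c-high cells (log2 difference 1.37, SE 0.15), and the other (chr11:53783723-53784803) had 157.2 and 100.0 against 52.3 and 48.0 tags (1.34, SE 0.25). Zbp1, for a sensor of Z-form nucleic acids, had 56.0 and 23.8 tags in KO CD11c-low and 7.47 and 5.54 in WT CD11c-high (2.45, SE 0.51). Irf8, for a myeloid transcription factor, had a distal peak with 5.38 and 4.76 tags in KO CD11c-low and 26.7 and 37.8 in WT CD11c-high (-2.45, SE 0.47). Of the 8 genes that the study chose for its genome tracks on these samples, 7 thus had lower peaks only and Irf1 had higher peaks only, and since they were chosen on these samples that count is no independent evidence. The paper describes reduced H3K27ac in the knockout at promoter regions of these genes, Irf1 among them. The listed Irf1 peaks were higher in KO CD11c-low cells, but their position relative to the Irf1 promoter is not given here. They are therefore not a measure of the promoter that the paper describes. Several listed peaks of the other track genes, as at Ikbke and Csf1, were intronic or intergenic.

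**Figure D2:**
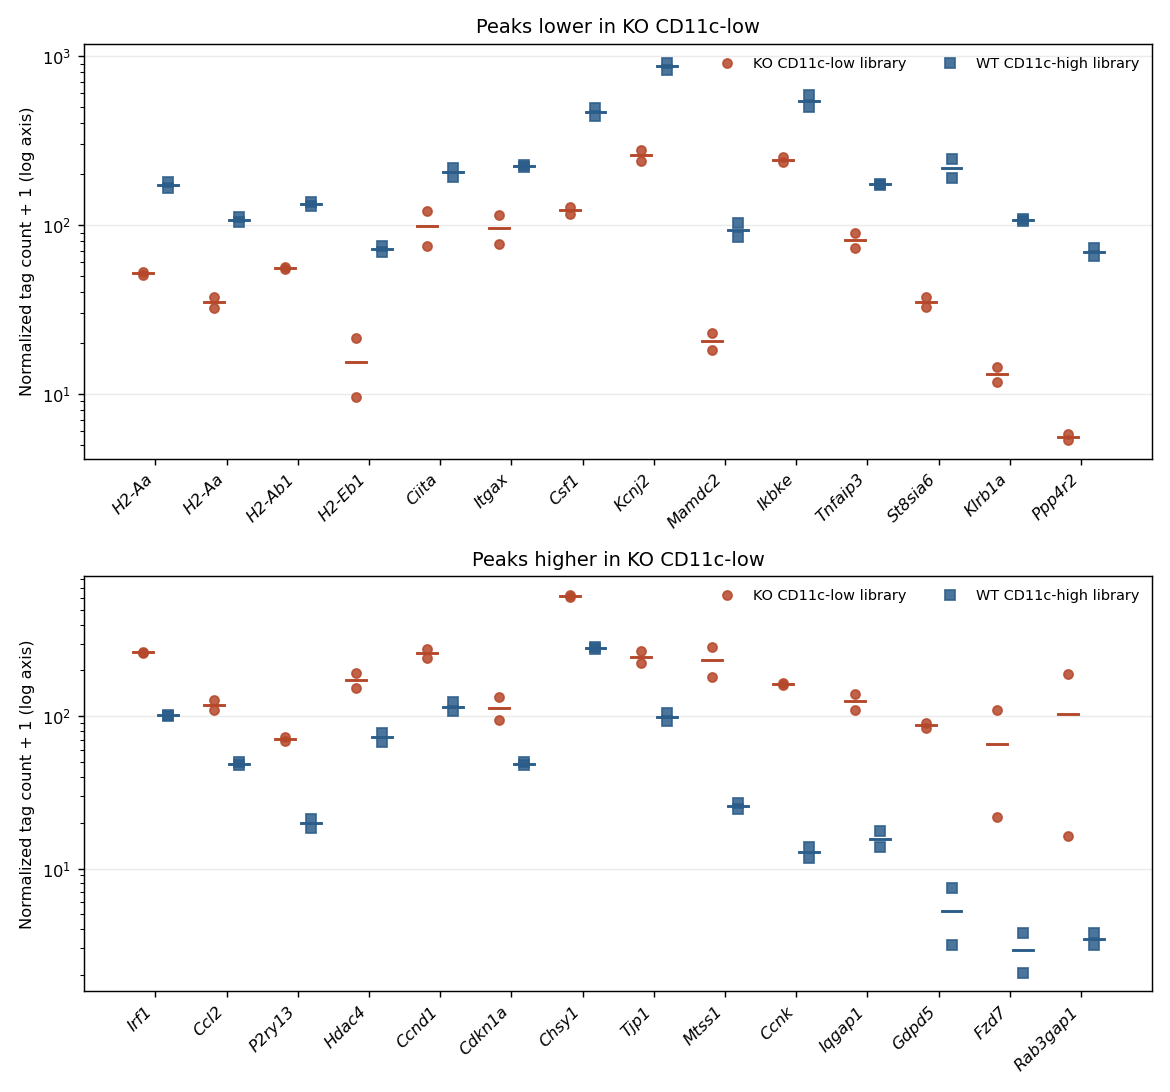
Normalized tag count plus 1 on a log axis at 14 lower (top) and 14 higher (bottom) peaks, named by nearest gene, with 1 point per library and a bar at the mean of each group (circles KO CD11c-low, squares WT CD11c-high). At H2-Aa the KO CD11c-low libraries stood at 51.7 and 49.5 and the WT CD11c-high libraries at 179.2 and 165.2, while at Rab3gap1 the KO CD11c-low libraries stood far apart at 188.4 and 15.2.

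Among lower peaks with a mean of at least 50 tags in WT CD11c-high cells, those with the largest differences lay near genes outside these lists. The largest was an intergenic peak near Cfap161, a gene of cilia, with 2.15 and 4.76 tags in KO CD11c-low cells, against 62.9 and 64.6 in WT CD11c-high cells (log2 difference -3.86, SE 0.47). The peak near Ppp4r2, for a regulatory subunit of protein phosphatase 4, whose centre is printed above, had 4.31 and 4.76 tags in KO CD11c-low and 64.0 and 72.0 in WT CD11c-high (-3.64, SE 0.38). The promoter peak of Klrb1a, for a C-type lectin-like receptor, had 10.8 and 13.3 tags in KO CD11c-low, against 104.5 and 107.0 in WT CD11c-high (-3.03, SE 0.28). At these 3 peaks the KO CD11c-low libraries held few reads, and the differences rest on low counts.

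A stronger peak with a large difference lay at St8sia6. This gene, for a sialyltransferase, had a promoter peak (chr2:13792570-13794291) with 36.6 and 31.4 tags in KO CD11c-low cells, against 188.8 and 245.5 in WT CD11c-high cells (log2 difference -2.64, SE 0.22). Other lower peaks of this rank, with a mean of at least 50 tags in WT CD11c-high, were near Galnt9 (-3.26), Ccdc130 (-3.12), Amigo2 (-2.92), C330018D20Rik and Acot7 (-2.56).

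Among higher peaks with a mean of at least 50 tags in KO CD11c-low cells, 1 per gene, the 10 with the largest differences were of 2 kinds by the spread of the KO CD11c-low libraries. At 4 of them replicate 1 stood far above replicate 2. The intronic peak in Rab3gap1, for a subunit of a regulator of Rab GTPases (chr1:127976055-127978890), had 188.4 and 15.2 tags in KO CD11c-low cells, against 2.13 and 2.77 in WT CD11c-high cells (log2 difference 4.90, SE 0.98). Without KO CD11c-low replicate 1 that difference was 2.23. The peak near Fzd7, for a Wnt receptor, had 108.7 and 21.0 tags in KO CD11c-low against 1.07 and 2.77 in WT CD11c-high, with a log2 difference of 4.49 and of 2.91 without that library. The peaks in Plaat3 (3.32) and Nav2 (2.97) had 1.77 and 1.63 without it.

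At the other 6 the KO CD11c-low replicates lay nearer to each other. The intronic peak in Gdpd5, for a glycerophosphodiester phosphodiesterase (chr7:99389799-99391467), had 82.9 and 89.5 tags in KO CD11c-low cells, against 2.13 and 6.46 in WT CD11c-high cells (log2 difference 4.04, SE 0.48). Ccnk, for cyclin K, a partner of transcriptional kinases, had an intronic peak (chr12:108193163-108196369) with 160.4 and 163.8 tags in KO CD11c-low, against 10.7 and 12.9 in WT CD11c-high (3.67, SE 0.26). The centres of both are printed above. Lrrc74a (77.5 and 55.3 tags in KO CD11c-low against 3.20 and 3.69 in WT CD11c-high), Epn2, for an endocytic adaptor (109.8 and 90.5 against 10.7 and 11.1), and Iqgap1, for a cytoskeletal scaffold (139.9 and 109.6 against 12.8 and 16.6), followed the same order. The pooled RNA level of Lrrc74a was 0.37 per kilobase, below the median of all genes in the table, and the nearest gene need not be the one the region serves.

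Many listed peaks lay in runs. Within 100 kb of another listed peak of the same direction lay 236 of 526 higher peaks (44.9%) and 118 of 383 lower peaks (30.8%), while 16 higher (3.04%) and 12 lower peaks (3.13%) had one of the opposite direction that near. These shares rise with the number of peaks listed, which was larger on the higher side. Mtss1, for a protein that binds membranes and actin, had 8 higher peaks on chromosome 15, the most of any gene, 7 of them in introns and 1 over its first exon. Its intronic peak at chr15:59029341-59031097, whose centre is printed above, had 285.3 and 181.0 tags in KO CD11c-low cells, against 23.5 and 25.8 in WT CD11c-high cells (log2 difference 3.19, SE 0.26). Summed over the 8 peaks the level was 1123 and 681 in KO CD11c-low, against 228 and 221 in WT CD11c-high, with replicate 1 the higher of the KO CD11c-low libraries at every one of the 8. At the peak where they differed by the largest factor, with 80.7 and 25.7 tags in KO CD11c-low, the log2 difference of 2.06 was 1.04 without KO CD11c-low replicate 1.

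Chsy1, for a synthase of chondroitin sulfate, had 6 higher peaks and Tjp1, for the tight junction protein ZO-1, had 5, both on chromosome 7. The strongest Chsy1 peak (chr7:66177820-66180726) had 622.2 and 608.7 tags in KO CD11c-low cells, against 277.3 and 284.2 in WT CD11c-high cells (log2 difference 1.13, SE 0.12). The strongest Tjp1 peak (chr7:65365914-65368285) had 269.1 and 222.0 tags in KO CD11c-low and 91.7 and 104.3 in WT CD11c-high (1.32, SE 0.17), and the Tjp1 peak with the largest difference had 31.2 and 24.8 against 1.07 and 1.85 tags (3.56, SE 0.62). Unlike at Mtss1, neither KO CD11c-low library was the higher one at all peaks of Chsy1. The uncharacterised transcripts 1600002D24Rik and 5730435O14Rik had 6 and 4 higher peaks.

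**Figure D3:**
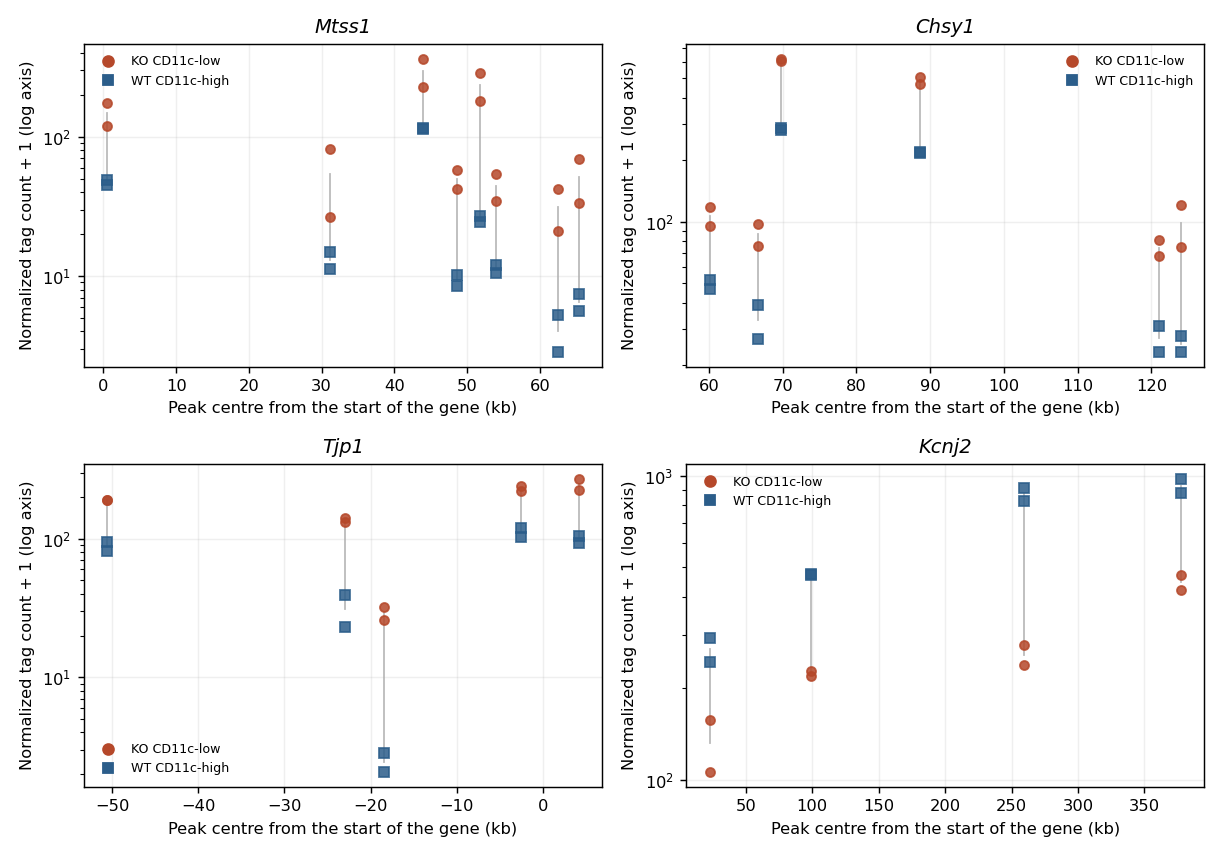
Normalized tag count plus 1 on a log axis at the listed peaks of 4 genes with several peaks, against the distance of the peak from the start of the gene in kilobases, with 1 point per library (circles KO CD11c-low, squares WT CD11c-high) and a line between the group means. All 8 Mtss1, 6 Chsy1 and 5 Tjp1 peaks were higher and all 4 Kcnj2 peaks were lower in KO CD11c-low cells.

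The remaining lists had few members with listed peaks. Proliferation genes had 2 of 30, both higher in KO CD11c-low cells, the cyclin D1 gene Ccnd1 (240.1 and 277.2 tags in KO CD11c-low against 106.7 and 122.7 in WT CD11c-high) and the cell cycle inhibitor gene Cdkn1a (132.4 and 93.4 against 46.9 and 48.9). These genes act in opposite senses on the cell cycle. Histone acetylation enzymes and readers had 3 of 30, all higher. Both counts stand beside 55.1% of all genes with a listed peak that had higher peaks only, and with so few members nothing is read from them. The histone acetylation genes included the deacetylases Hdac4 (191.6 and 151.5 tags in KO CD11c-low against 67.2 and 76.6 in WT CD11c-high) and Hdac9 (178.7 and 133.4 against 52.3 and 77.5). No acetyltransferase gene of that list and none of 12 arginine methyltransferase genes had a listed peak.

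Of 36 homeostatic microglia genes, only 2 had a listed peak. P2ry13, for an ADP receptor, had 72.1 and 67.6 tags in KO CD11c-low cells against 20.3 and 17.5 in WT CD11c-high cells (log2 difference 1.83, SE 0.28), and Ikzf1, for the transcription factor Ikaros, had 31.2 and 39.1 against 133.3 and 154.1 tags (-2.002, SE 0.23). Lipid and cholesterol handling had 1 gene in each direction, the fatty acid-binding protein gene Fabp3 (-1.08) and the lipoprotein receptor gene Lrp1 (1.03). Early response and AP-1 genes had Jund lower (-1.26) and the phosphatase gene Dusp4 higher (1.88), growth factor and TGF-beta signalling had Csf1 lower and Gas6 higher, and phagolysosome genes had Ctsl lower and the transcription factor gene Tfec higher (1.06). Over all 23 lists, 39 of 509 genes had a listed peak, 24 with lower and 15 with higher peaks only, while over all genes with a listed peak the shares were 44.2% and 55.1%. The lists were chosen with earlier results of these data known.

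Markers of other cell types were looked at in the same way. No listed peak was nearest to any of 17 monocyte and border macrophage, 15 lymphocyte, 12 neutrophil or 10 neuron markers. Of 15 oligodendrocyte markers, Mbp was lower (106.6 and 148.6 tags in KO CD11c-low against 311.4 and 303.6 in WT CD11c-high) and Cspg4, a marker of oligodendrocyte precursors, was higher (50.6 and 67.6 against 9.60 and 9.23). The paper also names Cspg4 among the transcripts of its phagocytic microglia cluster, and the pooled RNA level of Cspg4 was 137.8 per kilobase. Of 10 astrocyte markers, Slc1a2 was lower (13.99 and 10.5 tags in KO CD11c-low against 42.7 and 38.8 in WT CD11c-high) and S100b was higher (419.8 and 469.6 against 222.9 and 221.5). Of 11 endothelial markers, Vwf was lower (173.3 and 187.7 against 434.1 and 368.2). The Vwf peak (chr6:125526857-125529167) lay on the same stretch of chromosome 6 as the lower Cd9 peak (chr6:125497925-125498971).

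Summed over the listed peaks of a list, oligodendrocyte markers stood at 157.2 and 216.2 in KO CD11c-low and 321.0 and 312.8 in WT CD11c-high, and astrocyte markers at 433.8 and 480.1 in KO CD11c-low and 265.6 and 260.2 in WT CD11c-high. Defining markers such as Mog, Gfap, Aqp4, Cldn5 and Pecam1 had no listed peak, and their pooled RNA levels, from 2.83 (Mog) to 12.2 (Pecam1) per kilobase, lay below those of the microglia markers named above. The part of other cell types in the differences was not tested.

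**Figure D4:**
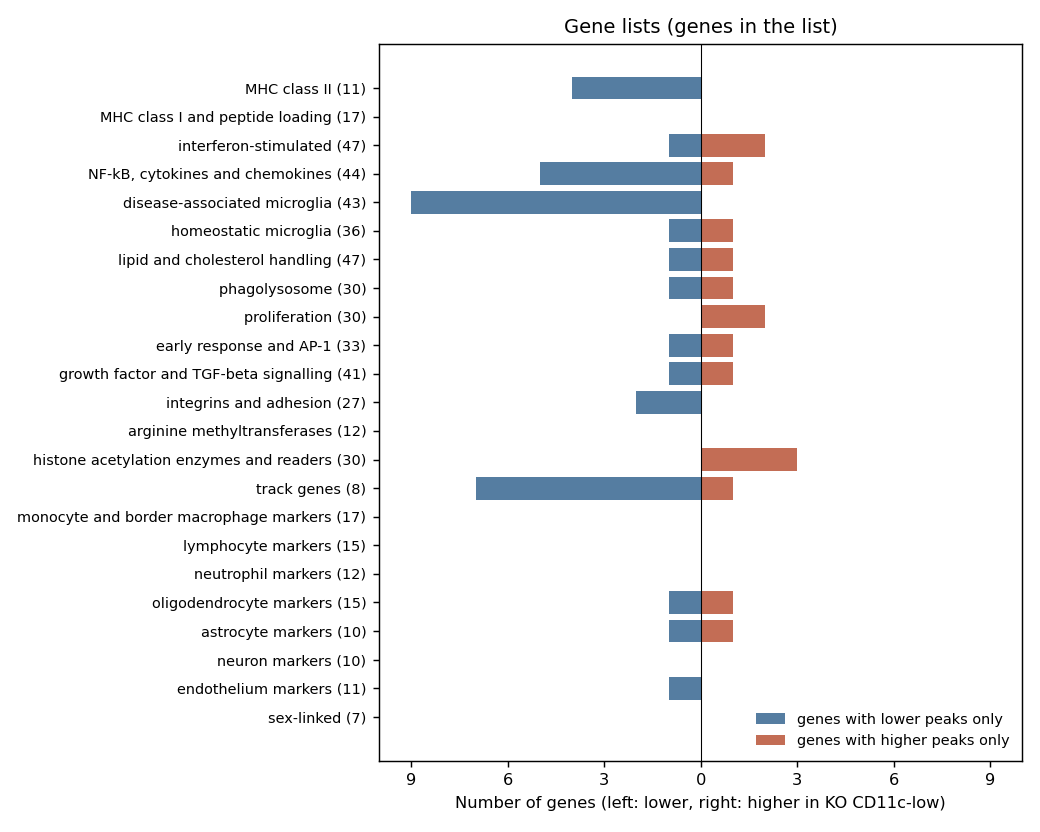
For each of 23 gene lists (size in brackets), bars give the number of genes with lower peaks only (left) and with higher peaks only (right) in KO CD11c-low compared with WT CD11c-high cells. The DAM list has 9 genes on the left and 0 on the right, and the MHC class II list 4 on the left and 0 on the right.

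Levels in WT cells of the other gate were read, where a peak with the same start and end was also listed in another comparison, after rescaling by the shared libraries. These comparisons share libraries with this one and were listed for a difference of their own, so the values are set side by side only. For 94 lower peaks that were also listed between the WT gates, the median level was 29.3 (KO CD11c-low), 41.1 (WT CD11c-low) and 101.7 (WT CD11c-high). The mean of WT CD11c-low lay above that of KO CD11c-low at 81 of the 94, and at 57 both WT CD11c-low libraries lay above both KO CD11c-low libraries, against 3 the other way. At H2-Aa the means were 50.6 (KO CD11c-low), 80.2 (WT CD11c-low) and 172.2 (WT CD11c-high), and at H2-Eb1 14.5, 26.4 and 71.0 in the same groups. Tnfaip3 was in another order, with 80.3 (KO CD11c-low), 66.9 (WT CD11c-low) and 172.7 (WT CD11c-high).

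For 113 higher peaks that were also listed between KO and WT CD11c-low cells, the median level was 125.2 (KO CD11c-low), 35.4 (WT CD11c-low) and 32.5 (WT CD11c-high). The WT gates had no common direction at these peaks, with a median log2 difference of 0.02 (WT CD11c-low minus WT CD11c-high). The mean of WT CD11c-low lay above that of WT CD11c-high at 58 of 113. Both WT CD11c-low libraries lay above both WT CD11c-high libraries at 39 peaks and below both at 24. Each of these peaks was listed for KO CD11c-low exceeding both WT gates, so low levels in both gates follow from the choice. At Gdpd5 the means were 86.2 (KO CD11c-low), 7.14 (WT CD11c-low) and 4.30 (WT CD11c-high), and at Ccnk 162.1, 22.3 and 11.8 in the same groups. At the Mtss1 peak printed above they were 233.1 (KO CD11c-low), 60.3 (WT CD11c-low) and 24.6 (WT CD11c-high), and both WT CD11c-low libraries lay above both WT CD11c-high libraries there. The comparison of lower with higher peaks is not a test, since each set was read from a list with its own contrast.

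Against WT microglia from a normal diet (WT basal), 249 lower peaks were also listed with the WT CD11c-high cells. Their median level was 49.1 (KO CD11c-low), 9.55 (WT basal) and 133.2 (WT CD11c-high), and KO CD11c-low exceeded WT basal in both libraries at 205 of the 249. At Itgax the means were 95.2 (KO CD11c-low), 24.8 (WT basal) and 222.8 (WT CD11c-high), and at the stronger Csf1 peak 120.9, 32.1 and 467.3 in the same groups. Both class II peaks of H2-Aa followed that order, with 50.6 (KO CD11c-low), 19.4 (WT basal) and 172.2 (WT CD11c-high) at the promoter. Klrb1a and Ppp4r2 lay nearer to the WT basal level, with 12.05 and 4.54 in KO CD11c-low, 6.02 and 3.49 in WT basal and 105.8 and 68.0 in WT CD11c-high. Irf8 had 5.07 (KO CD11c-low), 8.26 (WT basal) and 32.2 (WT CD11c-high).

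**Figure D5:**
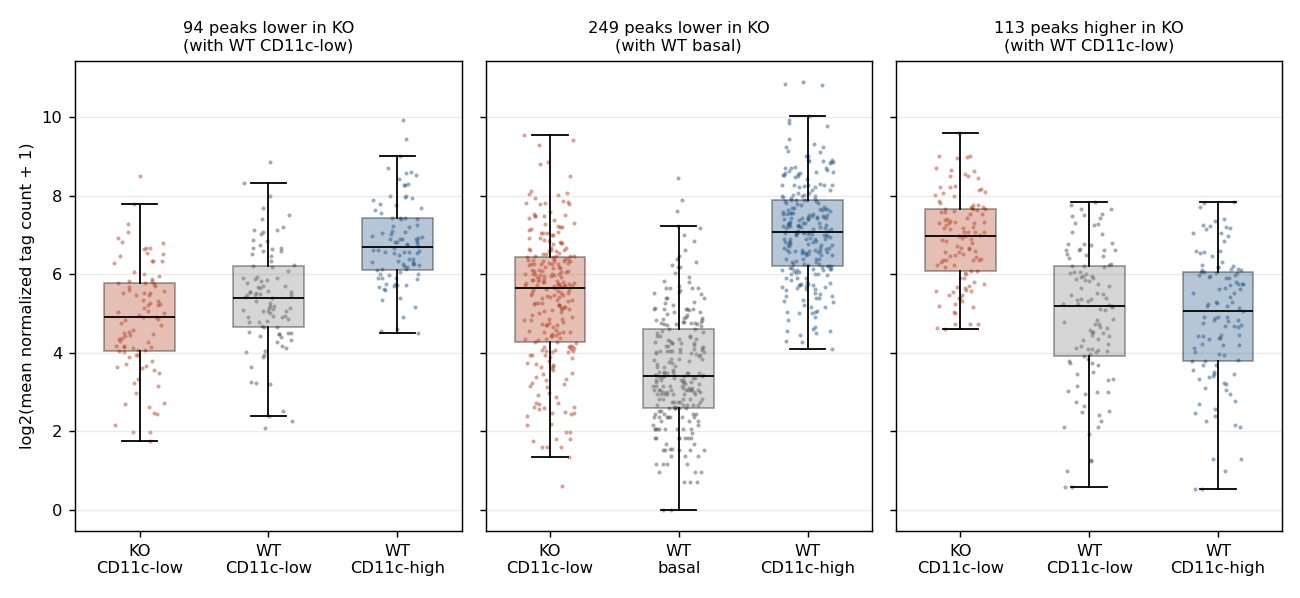
Log2 of the mean normalized tag count plus 1 per peak in KO CD11c-low, a further WT group and WT CD11c-high cells, for 94 lower peaks with WT CD11c-low, 249 lower peaks with WT basal and 113 higher peaks with WT CD11c-low (boxes give the median and quartiles, points are peaks). Medians run 29.3, 41.1 and 101.7 in the left panel, 49.1, 9.55 and 133.2 in the middle panel and 125.2, 35.4 and 32.5 in the right panel.

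A comparison that shares no library with this one, WT CD11c-low against WT basal, was set against the listed peaks by overlap of at least 1 bp. Of the 383 lower peaks, 163 (42.6%, exact 95% interval 37.6 to 47.7) overlapped a region higher in WT CD11c-low than in WT basal cells and 0 overlapped a region lower there. Of the 526 higher peaks, 44 (8.37%, 6.14 to 11.1) overlapped a region higher in WT CD11c-low than in WT basal and 38 (7.22%) a region lower there. The regions in question were 169 of 4334 higher ones (3.90%) for lower peaks, and 49 of 4334 (1.13%) higher and 34 of 552 (6.16%) lower ones for higher peaks. Intervals cover counting error only and peaks of 1 gene are not independent.

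Introns held 46.0% of lower and 55.9% of higher peaks, against 52.7% of all listed regions of the series, and intergenic sequence held 45.4% of lower and 33.1% of higher peaks, against 36.1%. Promoters held 3.66% and 2.66% of them, against 4.99%, so most listed peaks of either direction were distal, with a median distance to the nearest start of 19235 and 19303 bases. Of the lower peaks, 192 had been called by the authors in WT CD11c-high cells alone, 185 in both groups and 6 in KO CD11c-low cells alone, and of the higher peaks 410 in KO CD11c-low cells alone and 116 in both groups.

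Letters of known factors were searched on either strand in the central 500 bases of each peak, each pattern counted on its own even where matches overlapped. The IRF letters AANNGAAA, of interferon regulatory factors, stood in 48.3% of lower peaks (exact 95% interval 43.2 to 53.4) and 40.5% of higher peaks (36.3 to 44.8), against 48.4% of all 12333 listed regions (47.6 to 49.3). The intervals of lower and higher peaks overlapped, and that of higher peaks lay below that of all regions, which include both sets. IRF was 1 of 9 patterns searched. In the central 200 bases the letters stood in 21.9% of lower peaks (17.9 to 26.4) and 19.0% of higher peaks (15.7 to 22.6), against 23.7% of all regions, whose interval again lay above that of higher peaks. The PU.1 letters GAGGAAGT stood in 8.09% of lower and 8.56% of higher peaks, against 8.55%. AP-1 letters TGANTCA stood in 17.5% and 16.0%, against 17.3%, C/EBP letters TTGCNNAA in 22.2% and 19.2%, against 21.8%, and RUNX letters TGTGGT in 31.9% and 36.5%, against 34.7%. The CRE letters of the H2-Aa promoter stood in 1.04% of lower and 0.19% of higher peaks, against 0.72%. The median GC content was 47.8% in lower and 48.9% in higher peaks, against 47.6% in all listed regions. Its part in the shares of these letters was not tested.

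In the authors' RNA table of the comparison, the pooled mean gives a level and no direction. The median level per kilobase of transcript was 15.7 over 326 genes with lower peaks only and 21.0 over 405 genes with higher peaks only, against 1.27 over all 24717 genes. Listed at 0 were 63 of the 326 genes, 64 of the 405 and 9482 of all genes. Among genes with lower peaks, Tnfaip3 and Csf1 stood at 491.3 and 485.5 per kilobase, Cd9 at 381.0 and Kcnj2 at 209.9. Among genes with higher peaks, Cdkn1a stood at 294.5, Irf1 at 201.5, Ccnk at 86.7, Mtss1 at 27.6 and Gdpd5 at 16.8. Whether the RNA of these genes differed between the groups was not analysed here.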

How the data were processed

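H3K27ac was measured by ChIP-seq in sorted microglia. Per the labels and the study's methods, the authors mapped single-end reads with Bowtie2, checked them with FastQC 0.11.9, removed duplicates with SAMtools 0.1.19, called peaks against input with HOMER, merged the peaks of both groups and tested them with DESeq2. The deposited signal is a normalized tag count per peak and library, and only peaks past the authors' threshold are listed. The authors' fold changes and p-values, raw and adjusted, are columns of their own comparisons and were not used. From the deposited RNA table only the transcript length and the authors' pooled mean were used, and 19 per-library columns were not. The methods name a human build, but 667 of 696 peaks (95.8%) lay within 100 bp of their stated distance from a RefSeq start of GRCm38.p6, which was used.

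All values were whole multiples of the value of 1 read, within a tolerance of 0.006 tags plus 0.003 of that value. Log2 differences were taken on log2(value + 1), which understates those of low peaks, and their errors from limma 3.58.1 with Benjamini-Hochberg adjustment over the 909 peaks. Alternatives were a pseudocount of 5, a mean of at least 50 tags, a replicate block, TMM and median-ratio factors, edgeR 4.0.16 and DESeq2 1.42.0 on whole reads, autosomes only, a 50% reciprocal overlap, a 200-base motif window, list peaks within 100 kb only, and leaving out each library. Fits were tested on simulated data. Named genes are, per direction, the 10 largest differences among peaks whose higher group averaged 50 tags or more, 1 per nearest gene, up to 4 genes per list, every peak of the track genes, Prmt1 and Cx3cr1, and the 5 genes with most peaks. Some of these are not reported here. The members and lists were chosen with earlier results of these data known. Reads carried no molecular identifiers, so intervals cover counting error only. RefSeq promoters and the genome of GRCm38.p6 gave the sequences. H2-Ab1 and Ciita were not matched to a promoter entry.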

Additional observations from a re-analysis of the deposited data

How the results depend on the processing

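Over the listed peaks limma called 908 of 909, against 909 with edgeR, 909 with DESeq2 and 907 with a pseudocount of 5. Replicate numbers of the groups did not deviate together over the listed peaks (correlation -0.05), and with the replicate block 909 were called. Since the peaks were chosen on these libraries, whether same-numbered libraries shared a preparation cannot be told from that value. TMM factors over the listed peaks moved all differences by a median of -0.41 on the log2 scale and median-ratio factors by -0.93. Both assume an unchanged bulk of peaks, which a list made of changed peaks lacks. Under them lower peaks had a median of -1.82 and -2.34 and higher peaks of 1.05 and 0.53, calls were 906 (383 lower and 523 higher) and 587 (383 lower and 204 higher), so that most calls were lower under median-ratio factors, and no listed peak changed sign. Leaving out 1 library in turn gave 886 to 907 calls and medians from -1.50 to -1.41 and from 1.42 to 1.46. A reciprocal overlap of 50% gave 27.4% of lower and 4.37% of higher peaks shared with regions higher in WT CD11c-low than in WT basal, against 42.6% and 8.37% at 1 bp, and the cause was not tested. Of 103 named peaks, 0 reversed under any alternative. Their differences moved by more than the replicate spread at 64 with TMM factors, at 89 with median-ratio factors, at 19 with a pseudocount of 5 and at 1, Rab3gap1, without KO CD11c-low replicate 1. Fold changes of peaks with few reads, such as those near Cfap161 and Ppp4r2 in KO CD11c-low, are limited by depth. The input libraries were not analysed here.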

Other observations

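Several strong peaks fell outside the rule for named genes and were chosen after their values were seen. Epha2, for an ephrin receptor, had 3 higher peaks, and the strongest (chr4:141299664-141306579) had 1296 and 1203 tags in KO CD11c-low cells against 327.4 and 352.5 in WT CD11c-high cells (log2 difference 1.87, SE 0.11). E2f3, for a cell cycle transcription factor, had 4 higher peaks, the strongest with 1397 and 1393 tags in KO CD11c-low against 603.7 and 668.1 in WT CD11c-high (1.13). Runx3, for a transcription factor of the RUNX family, had 4 higher peaks with KO CD11c-low replicate 1 above replicate 2 at each, as at Mtss1. At the strongest of them the KO CD11c-low libraries held 329.4 and 108.6 tags, against 36.3 and 45.2 in WT CD11c-high.

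On the lower side, the intron of St8sia6 held a broad peak (chr2:13781504-13791819) with 689.0 and 558.2 tags in KO CD11c-low against 1826 and 1949 in WT CD11c-high (log2 difference -1.60, SE 0.12), beside the promoter peak described in the report. Akap5, for an anchoring protein of protein kinase A, had a promoter peak with 40.9 and 45.7 tags in KO CD11c-low against 169.6 and 147.7 in WT CD11c-high (-1.85) and a peak in a neighbouring gene with 698.6 and 652.5 against 1864 and 1797 tags (-1.44). Slc7a11, for the cystine/glutamate exchanger, had 3 intergenic peaks, all lower, with log2 differences of -1.67, -2.04 and -2.48.

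The 5 genes with peaks of both directions were Cacna1a, Dapk1, Frmd4a, Iqsec1 and Tspan3. In Iqsec1, a first intron held 2 higher peaks (log2 differences 1.22 and 1.04) and a lower one (-1.63), with 101.2 and 118.1 tags in KO CD11c-low against 355.2 and 327.6 in WT CD11c-high at the lower peak. Near Dapk1, for a death-associated kinase, intronic peaks were higher (1.13 and 1.83) and an upstream intergenic peak was lower (-2.25).

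Higher peaks were spread unevenly over chromosomes. Chromosome 11 held 52 of them and chromosome 7 held 51, which is 9.89% and 9.70% of higher peaks against 6.96% and 6.01% of all listed regions. Within 5 Mb of Prmt1, on chromosome 7, lay 2 higher and 0 lower peaks, and within 5 Mb of Cx3cr1, on chromosome 9, lay 2 higher and 4 lower peaks. The nearest listed peaks were 0.69 Mb from Prmt1 and 0.63 Mb from Cx3cr1.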
